A study of Mus musculus with 12 samples.

Results

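Col1a1, Col1a2, Col3a1, Col5a1, Col5a2, Col11a1 and Col12a1 encode chains of collagens I, III, V, XI and XII, the fibre-forming core of scar tissue in the liver. They were taken by gene symbol, and all 7 were found among 12081 genes whose expression was measured by RNA sequencing in primary mouse hepatic stellate cells, the pericytes of the liver sinusoid that turn into collagen-secreting myofibroblasts. All 4 groups of 3 libraries came from mice whose Hk2 alleles, encoding the glycolytic enzyme hexokinase 2, carry sites for Cre recombinase (Hk2 fl/fl). LAC cells had received an adenovirus carrying Cre fused to eGFP and 10 mM lactate for 24 h. KO cells had received the same Cre virus without lactate. ACT cells had received an adenovirus with eGFP alone. LAC, KO and ACT cells were cultured for 6 days. QS cells were freshly isolated and untreated. An adenovirus is not specific to stellate cells, so other cells in the dish can also have lost Hk2. Nothing in the labels tells separate animals or cultures from repeat libraries, and p-values therefore speak of the spread among libraries, which may be technical.

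Fibrillar collagens are made as procollagens, of which chains are wound into a triple helix in the endoplasmic reticulum, trimmed outside the cell and packed into fibrils. Col1a1 and Col1a2 encode the alpha chains of type I collagen, the main collagen of scar, whose usual form joins a pair of Col1a1 chains to a single Col1a2 chain. Col3a1 encodes the only chain of type III collagen, which mixes with type I in young, pliable fibrils. Col5a1 and Col5a2 encode chains of type V collagen, and Col11a1 a chain of type XI collagen, both of which sit in the fibril core and set its diameter. Col12a1 is not a fibril-forming collagen in the strict sense: it is a fibril-associated collagen that decorates the surface of type I fibrils.

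Depth, estimated as M (megareads) per library, was 8.67 to 11.05 in LAC, 5.85 to 11.64 in KO, 11.41 to 14.00 in ACT and 4.35 to 10.14 in QS. Values are the authors' normalized counts per megaread (CPM), which set each gene against the bulk of all genes. In bulk samples, fewer cells of a type and less RNA per cell cannot be told apart. Hk2 had 18.7, 19.6 and 19.7 CPM in LAC, 10.7, 13.7 and 11.9 CPM in KO, 181, 182 and 181 CPM in ACT and 73.3, 66.7 and 73.5 CPM in QS, so that every library with Cre lay below every library without it. Markers of other liver cells differed strongly between the groups, as the plot of marker sums shows. The summed level of 20 macrophage markers was 4775 to 4865 CPM in LAC, 613 to 640 CPM in KO, 18219 to 18596 CPM in ACT and 7416 to 7577 CPM in QS. That of 18 endothelial markers was 5362 to 5601 CPM in LAC, 9704 to 10888 CPM in KO, 870 to 899 CPM in ACT and 19116 to 19601 CPM in QS. Markers of the labelled cell type were present in every group: the 16 stellate and mesenchymal markers summed to 6457 to 6689 CPM in LAC, 5189 to 5531 CPM in KO, 7063 to 7136 CPM in ACT and 4396 to 4494 CPM in QS. Of these 16, 10 were called higher and 4 lower in KO than in ACT (36.0% and 26.3% of all genes, limma adjusted p under 0.05). Those called higher included Rgs5 (85.8 CPM in KO and 8.46 CPM in ACT), Lrat (17.4 and 3.09 CPM) and Reln (412 and 107 CPM). The 3 most abundant of the list, Vim, Acta2 and Tagln, were among the 4 called lower. Vim had 1826 CPM in LAC, 1385 CPM in KO, 1603 CPM in ACT and 413 CPM in QS, and the contractile genes Acta2 (1434, 653, 2656 and 2.64 CPM) and Tagln (886, 635, 1286 and 11.9 CPM) were highest in ACT. Among macrophage markers Ctss had 738, 24.7, 2511 and 549 CPM in the same groups, whereas Mrc1, which sinusoidal endothelium also expresses, had 188, 387, 170 and 1538 CPM. Of the endothelial markers, Cdh5 had 769, 1356, 70.9 and 2189 CPM, Eng 1102, 1887, 209 and 1206 CPM, and Ptprb 720, 1294, 66.4 and 3384 CPM. What these mixtures contribute to the collagen values was not tested.

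**Figure D1:**
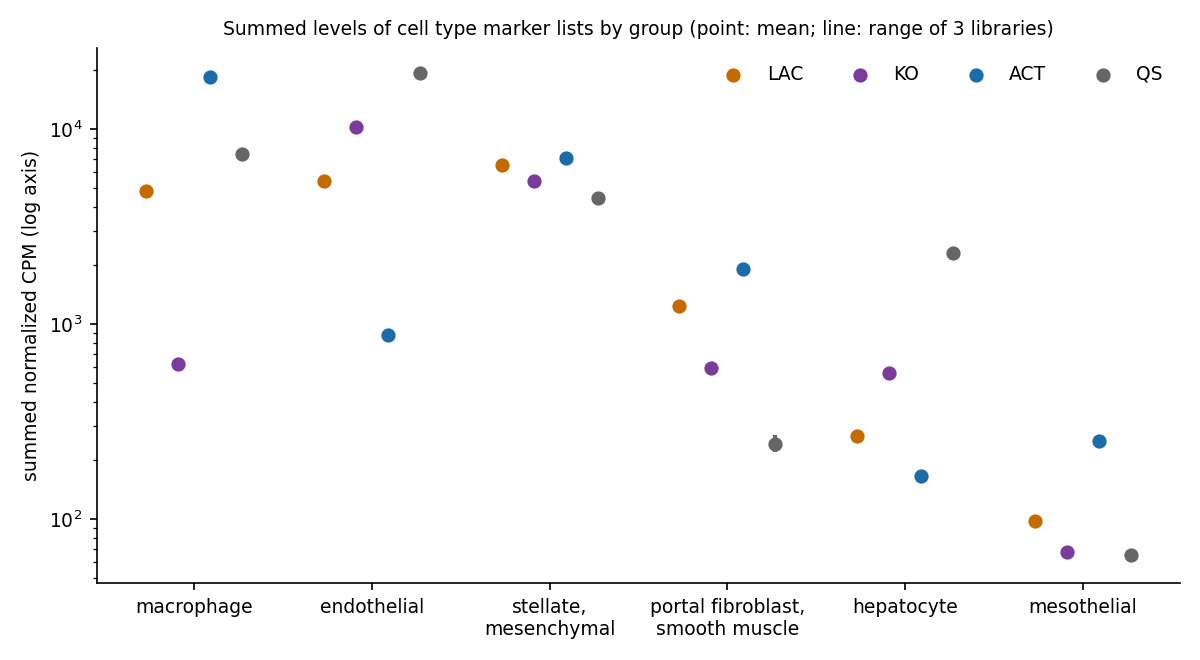
Summed normalized CPM (log axis) of 6 lists of cell type markers in LAC, KO, ACT and QS; each point is the mean of 3 libraries and each line their range, often smaller than the point. Macrophage markers were lowest in KO (mean 626 CPM) and highest in ACT (mean 18433 CPM), and endothelial markers were lowest in ACT (mean 882 CPM).

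In the GENCODE M21 annotation of GRCm38 (mm10), Col1a1 lies on chromosome 11 (94936224 to 94953042, plus strand) with 51 exons, and Col1a2 on chromosome 6 (4504814 to 4541544, plus strand) with 52 exons. Col3a1 on chromosome 1 (45311538 to 45349706, plus strand) and Col5a2 on the same chromosome (45374321 to 45503282, minus strand) are neighbours that point at each other, with 24.6 kb and no annotated gene between them. Col5a1 lies on chromosome 2 (27886425 to 28039514, plus strand), Col11a1 on chromosome 3 (114030540 to 114220718, plus strand) and Col12a1 on chromosome 9 (79598991 to 79718831, minus strand). Short gene models annotated inside Col1a2, Col3a1 and Col5a2 run on the same strand as their hosts, so that reads could be split between them. Others inside Col5a1 and Col12a1 run on the opposite strand.

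RefSeq promoters (GRCm38.p6) were at hand for 4 of the 7 genes, Col1a2, Col3a1, Col5a1 and Col11a1, with Col1a1, Col5a2 and Col12a1 unmatched. The 200 bases before each RefSeq start are shown because these 4 genes span the range of responses described below, from the chain with the deepest fall in KO (Col1a2) to one not called (Col5a1). Capitals mark matches on either strand to CCAAT (a motif of the factor NF-Y), GGGCGG (Sp1), TATAAA (the TATA box) and CAGAC (a motif of Smad proteins), and none of these matches overlapped another. The stretches are chr6:4505418-4505617 for Col1a2, chr1:45311338-45311537 for Col3a1, chr2:27886225-27886424 for Col5a1 and chr3:114030340-114030539 for Col11a1, all on the plus strand. The RefSeq start used for Col1a2 lies inside the GENCODE gene model given above, downstream of its first base, whereas the other 3 stretches end 1 base before the GENCODE start.
Col1a2: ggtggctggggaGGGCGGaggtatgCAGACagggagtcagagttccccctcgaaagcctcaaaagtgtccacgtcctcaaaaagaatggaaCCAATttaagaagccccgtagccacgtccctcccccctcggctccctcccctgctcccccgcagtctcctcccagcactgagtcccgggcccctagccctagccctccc
Col3a1: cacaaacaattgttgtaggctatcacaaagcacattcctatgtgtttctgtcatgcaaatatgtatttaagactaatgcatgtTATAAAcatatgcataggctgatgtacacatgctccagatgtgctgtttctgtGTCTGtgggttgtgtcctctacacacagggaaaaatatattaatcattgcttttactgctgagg
Col5a1: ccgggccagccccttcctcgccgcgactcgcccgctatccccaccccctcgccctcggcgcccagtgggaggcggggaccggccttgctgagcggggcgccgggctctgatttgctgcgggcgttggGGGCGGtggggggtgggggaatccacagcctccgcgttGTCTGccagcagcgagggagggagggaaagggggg
Col11a1: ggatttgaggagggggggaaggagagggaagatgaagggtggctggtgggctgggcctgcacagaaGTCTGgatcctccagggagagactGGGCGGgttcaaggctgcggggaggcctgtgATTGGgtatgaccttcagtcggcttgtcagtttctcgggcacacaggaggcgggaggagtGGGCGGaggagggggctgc
Base composition set them apart. The share of G and C was 63.5% in Col1a2, 37.5% in Col3a1, 75.5% in Col5a1 and 64% in Col11a1, where the median of 32851 promoters was 53%. CG dinucleotides numbered 8 in Col1a2, 0 in Col3a1, 20 in Col5a1 and 6 in Col11a1, with a median of 5. CAGAC was present in all 4 and in 35.5% of all promoters, GGGCGG in Col1a2, Col5a1 and Col11a1 and in 31.0% of all, CCAAT in Col1a2 and Col11a1 and in 29.3% of all, and TATAAA only in Col3a1 among the 4 and in 9.96% of all. The CCAAT match of Col1a2 began at position -109 from the start, and that of Col11a1, on the opposite strand, at -79. The TATAAA match of Col3a1 began at -117, and whether it works as a TATA box was not tested. A match describes the letters and shows no binding.

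KO was set against ACT to ask how far each collagen chain differs between Hk2-deleted and control cells. The groups also differ in Cre itself and in the marker sums of other cells, which cannot be told apart from the loss of Hk2. Against ACT, 5 of the 7 chains were called lower in KO, 2 were not called and none was called higher. Over all 12081 genes, 62.4% were called, 26.3% as lower and 36.0% as higher (limma, Benjamini-Hochberg adjusted p under 0.05). The median log2 fold change was -1.47 for the chains and 0.07 for all genes. Every log2 fold change here is of CPM + 1, which understates changes of low genes. The plot of levels by library shows all 7 chains.

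**Figure D2:**
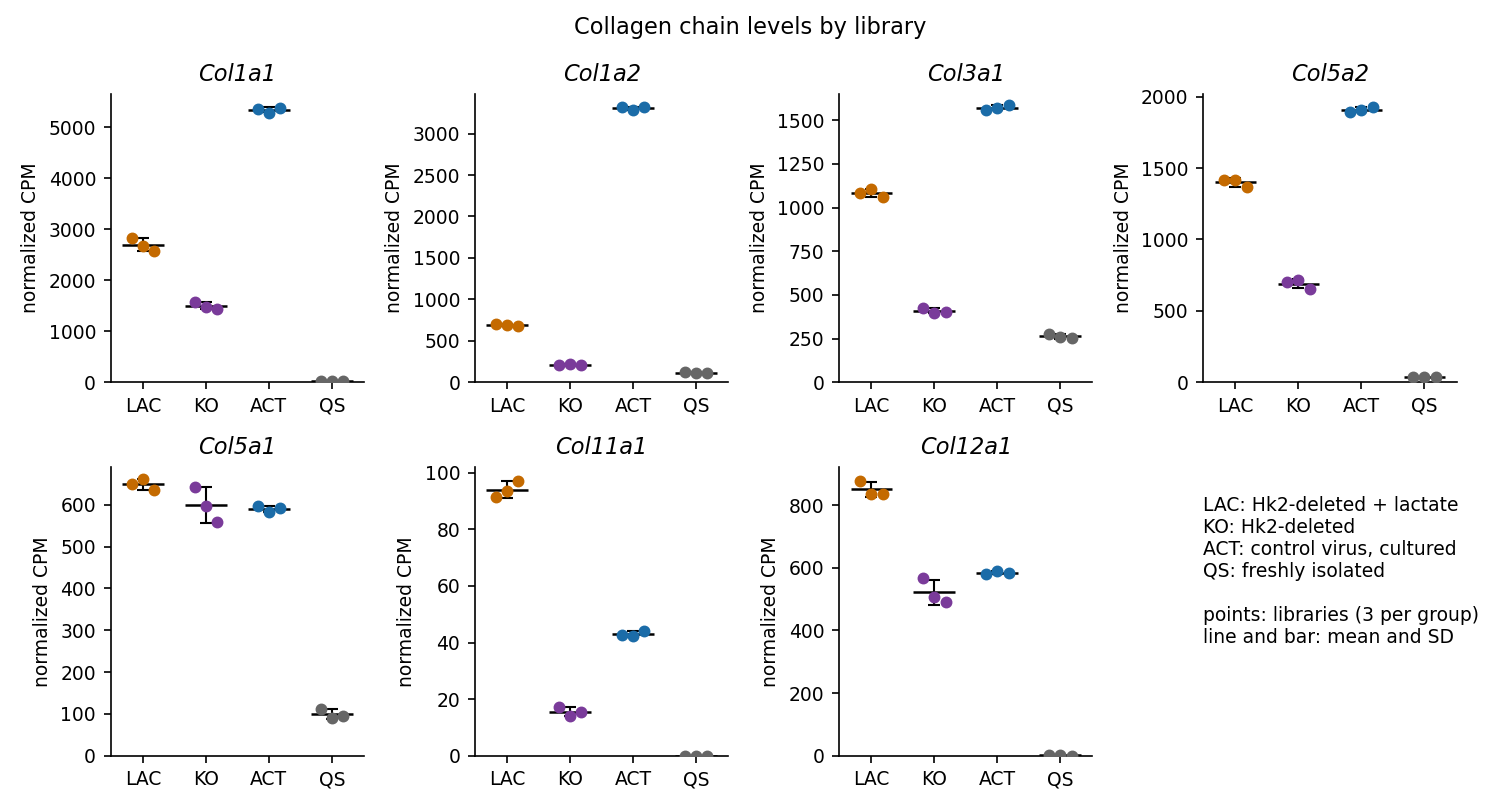
Normalized CPM of each chain (vertical axes, each from 0) in the libraries of LAC, KO, ACT and QS; points are libraries, lines and bars are the mean and SD of 3. Col1a1, Col1a2, Col3a1 and Col5a2 were ordered ACT, LAC, KO, QS from high to low, Col11a1 and Col12a1 were highest in LAC, and Col5a1 had close levels in LAC, KO and ACT.

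The deepest fall was that of a type I chain, and the pair of type I chains fell unequally. Col1a2 had 210, 217 and 211 CPM in KO, against 3316, 3284 and 3316 CPM in ACT. The KO libraries were thus at 6.43% ± 0.11 of the ACT mean (SD, n = 3), and the log2 fold change was -3.95 (SE 0.039, limma adjusted p = 1.11e-17). Col1a1 had 1573, 1481 and 1440 CPM in KO, against 5356, 5284 and 5383 CPM in ACT. This was 28.0% ± 1.27 of the ACT mean, with a log2 fold change of -1.83 (SE 0.041, adjusted p = 5.59e-14). No library of KO reached the range of ACT for either chain.

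Col3a1 and 1 of the type V chains fell by amounts near that of Col1a1, and the type V chains differed from each other. Col3a1 had 424, 397 and 403 CPM in KO, against 1561, 1568 and 1587 CPM in ACT, or 26.0% ± 0.90 of the ACT mean (log2 fold change -1.94, SE 0.038, adjusted p = 1.61e-14). Col5a2 had 703, 713 and 652 CPM in KO, against 1890, 1910 and 1928 CPM in ACT, or 36.1% ± 1.71 (-1.47, SE 0.041, adjusted p = 7.12e-13). Col5a1, the partner of Col5a2 in type V collagen, had 644, 596 and 558 CPM in KO, against 597, 582 and 592 CPM in ACT. The groups overlapped, and the log2 difference of 0.02 was not called (adjusted p = 0.822), with a 95% interval of -0.12 to 0.16. That interval excludes a fall or rise of the size seen in Col5a2, but its centre depends on the scaling: with each library set to an equal level of 6 stellate lineage genes, Col5a1 was lower in KO by -0.43 on the log2 scale (adjusted p = 4.06e-06), where the median of all genes was -0.35.

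The scarcest chain and the fibril-associated one differed as well. Col11a1 had 17.1, 14.0 and 15.6 CPM in KO, against 42.6, 42.2 and 44.0 CPM in ACT, resting on an estimated 85 to 204 reads per KO library. The level was 36.2% ± 3.67 of the ACT mean and the log2 fold change -1.41 (SE 0.097, adjusted p = 1.35e-08). Col12a1 had 568, 507 and 492 CPM in KO, against 580, 589 and 583 CPM in ACT. All KO libraries lay below all ACT libraries, and 69.2% of all genes had no overlap in 1 direction or the other. The log2 fold change of -0.16 was not called (SE 0.164, adjusted p = 0.407). Its 95% interval ran from -0.52 to 0.19. The fit shares its error with the QS libraries, where Col12a1 had 0.418 to 1.76 CPM. In a fit of KO and ACT alone the adjusted p was 0.0184, and without QS replicate 1 it was 0.0474.

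The chains were compared directly by the log2 ratio of 2 chains within each library, over all 21 pairs. These pairs reuse the same 7 genes, and no share was computed over other gene pairs, so a count of pairs has no baseline. For single genes, 69.2% had no overlap between KO and ACT. In KO against ACT, the groups did not overlap in 20 of the 21 pairs. The exception was Col5a2 with Col11a1, whose fold changes differed by -0.06 (SE 0.096, exact two-sided permutation p = 0.50). For the other pairs the exact permutation p was 0.10, the smallest that 3 against 3 libraries can give, and 0.105 after adjustment over the pairs, so that no pair could pass 0.05. The fold change of Col1a2 was more negative than that of Col1a1 by 2.12 (SE 0.045), and that of Col5a2 more negative than that of Col5a1 by 1.49 (SE 0.042). Col1a1 and Col3a1 were close, differing by 0.11 (SE 0.022). The plot of fold changes sets them side by side.

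**Figure D3:**
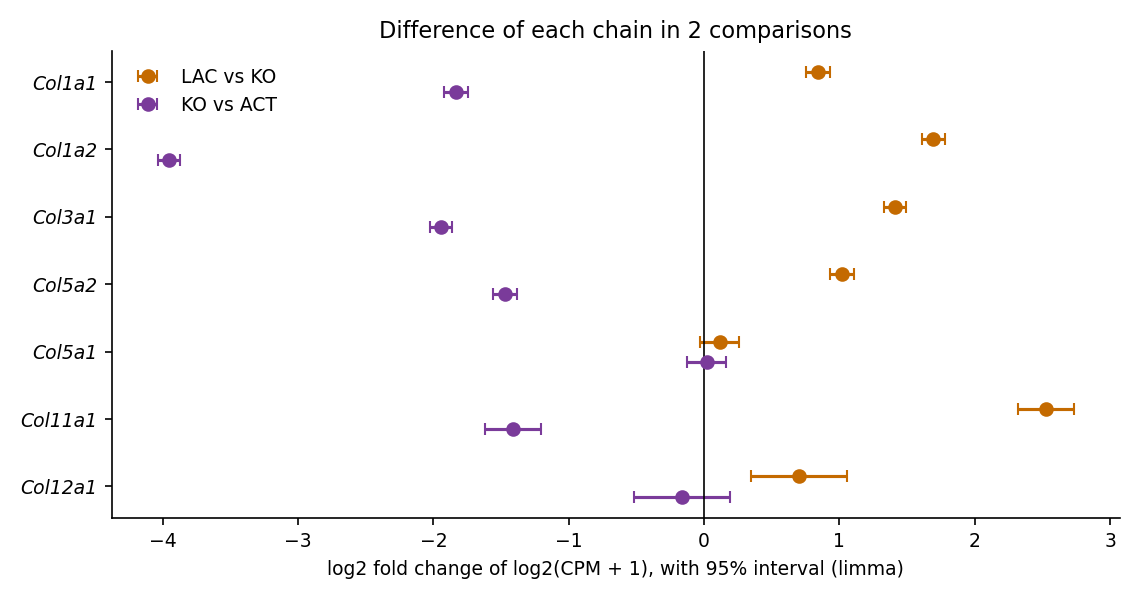
Log2 fold change of each chain on the log2(CPM + 1) scale (horizontal axis) in LAC against KO and in KO against ACT, with 95% intervals from limma. KO against ACT ran from -3.95 for Col1a2 to 0.02 for Col5a1, and LAC against KO from 0.12 for Col5a1 to 2.53 for Col11a1.

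LAC was set against KO to ask whether lactate brings the chains back. Of the 7 chains 6 were called higher in LAC than in KO and 1 was not called, where 41.0% of all genes were called and 20.0% called higher. The median log2 fold change was 1.02 for the chains and -0.02 for all genes. LAC against KO shares the KO libraries with KO against ACT, so the fold changes of both are not independent and are given as separate values.

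The type I chains were higher in LAC than in KO and lower than in ACT. Col1a1 had 2828, 2667 and 2577 CPM in LAC, against 1573, 1481 and 1440 CPM in KO (log2 fold change 0.84, SE 0.041, adjusted p = 1.15e-09). Col1a2 had 696, 693 and 683 CPM in LAC, against 210, 217 and 211 CPM in KO (1.70, SE 0.039, adjusted p = 4.93e-13). In LAC, Col1a1 reached 50.4% ± 2.38 and Col1a2 20.9% ± 0.22 of the ACT mean, and both were called lower in LAC than in ACT, by log2 fold changes of -0.99 (adjusted p = 1.16e-10) for Col1a1 and -2.26 (adjusted p = 1.62e-14) for Col1a2.

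Col3a1 and Col5a2 came nearer to ACT. Col3a1 had 1086, 1109 and 1063 CPM in LAC, or 69.1% ± 1.46 of the ACT mean, with a log2 fold change of 1.41 against KO (SE 0.038, adjusted p = 2.71e-12). Col5a2 had 1420, 1419 and 1365 CPM in LAC, or 73.4% ± 1.63, with a log2 fold change of 1.02 (SE 0.041, adjusted p = 1.75e-10). Both were still called lower than in ACT (-0.53 for Col3a1, adjusted p = 4.29e-08, and -0.45 for Col5a2, adjusted p = 5.98e-07). Expressed as a share of the distance between the KO and ACT means, the rise in LAC covered 58.2% for Col3a1 and 58.3% for Col5a2, against 31.0% for Col1a1 and 15.5% for Col1a2. Leaving out each library in turn kept these shares between 57.3% and 59.2% for Col3a1, 57.6% and 59.8% for Col5a2, 29.2% and 32.5% for Col1a1, and 15.4% and 15.6% for Col1a2. The KO mean enters both parts of such a share, which is given as a description. These shares and the percentages of ACT hold for the deposited scaling, and the shares were not computed at other scalings. The share depends on the scale: on the log2 scale it was 72.6% for Col3a1, 69.6% for Col5a2, 46.03% for Col1a1 and 42.9% for Col1a2, so that the type I chains were close to each other there.

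Col11a1 and Col12a1 passed their ACT level. Col11a1 had 91.5, 93.5 and 97.2 CPM in LAC, against 17.1, 14.0 and 15.6 CPM in KO (log2 fold change 2.53, SE 0.097, adjusted p = 9.73e-11). This was 219% ± 6.74 of the ACT mean and was called higher than ACT (1.11, adjusted p = 3.09e-07). Col12a1 had 878, 836 and 837 CPM in LAC, against 568, 507 and 492 CPM in KO (0.70, SE 0.164, adjusted p = 0.0036). At 146% ± 4.09 of the ACT mean it was called higher than ACT as well (0.54, adjusted p = 0.0138), a call lost with a pseudocount of 0.1 or 0.5 and with stellate lineage scaling (0.03, adjusted p = 0.877). Col5a1 had 650, 661 and 634 CPM in LAC, against 644, 596 and 558 CPM in KO. The groups overlapped and the difference of 0.12 was not called (adjusted p = 0.182), with a 95% interval of -0.03 to 0.26. Against ACT, LAC was called higher for 2 chains and lower for 4, where 49.5% of all genes were called, 27.8% as higher and 21.7% as lower. The plot of levels in percent of ACT shows the order.

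**Figure D4:**
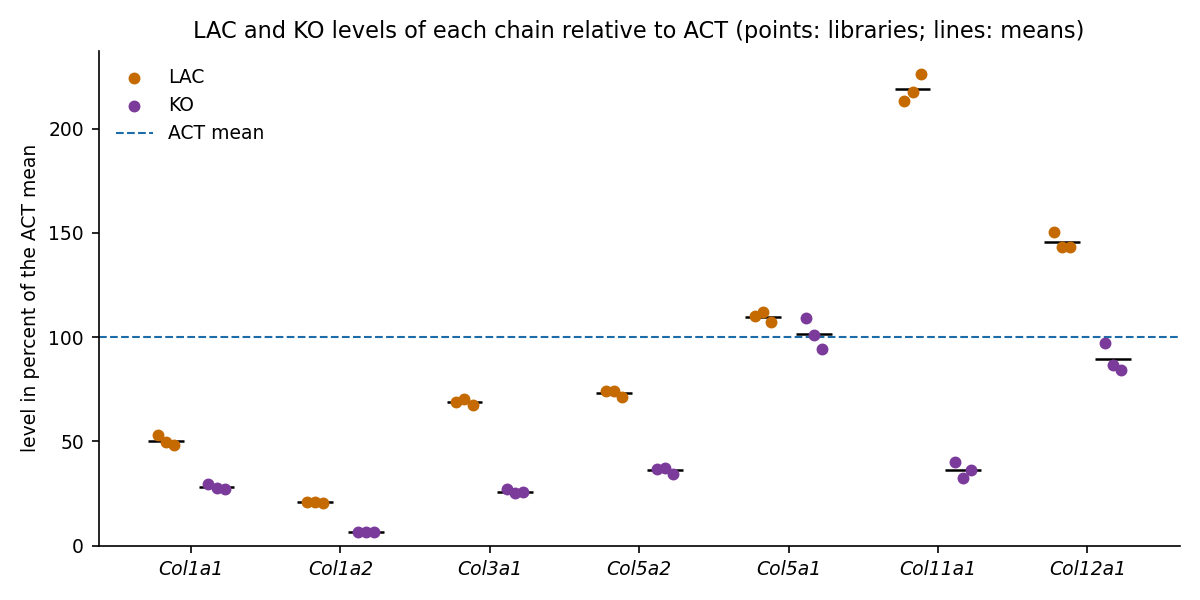
Level of each chain in LAC and KO libraries in percent of the ACT mean (vertical axis, from 0; dashed line at 100); points are libraries and lines their means. KO ranged from 6.43% for Col1a2 to 101% for Col5a1, and LAC from 20.9% for Col1a2 to 219% for Col11a1.

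In LAC against KO, the 2 groups did not overlap in any of the 21 pairs of chains, and each exact permutation p was 0.10, the smallest possible, before and after adjustment. The pairs again reuse the same genes, and no share over other gene pairs was computed. The count therefore has no baseline and does not set these chains apart from other genes. The fold change of Col1a2 exceeded that of Col1a1 by 0.85 (SE 0.055), and that of Col5a2 exceeded that of Col5a1 by 0.91 (SE 0.040). Col11a1 rose by 1.503 more than Col5a2 (SE 0.104), whereas their fold changes in KO against ACT differed by less than the spread.

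The balance of chains that share a molecule moved with these differences. Levels of different genes are compared here as CPM per kb of the longest annotated coding transcript, 5.93 kb for Col1a1, 5.35 kb for Col1a2, 8.41 kb for Col5a1 and 6.625 kb for Col5a2. Per kb, the ratio of Col1a1 to Col1a2 was 3.51 ± 0.13 in LAC, 6.36 ± 0.35 in KO, 1.46 ± 0.0064 in ACT and 0.224 ± 0.015 in QS (SD, n = 3). The 4 groups were fully apart, with 6.14 to 6.76 in KO and 1.45 to 1.46 in ACT. The ratio of Col5a1 to Col5a2 was 0.365 ± 0.0033 in LAC, 0.685 ± 0.032 in KO, 0.244 ± 0.0045 in ACT and 2.28 ± 0.36 in QS. Both ratios were thus higher in KO than in LAC and ACT. The authors' values give no isoform, so the scale of a ratio depends on the transcript chosen, but not its order among groups.

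**Figure D5:**
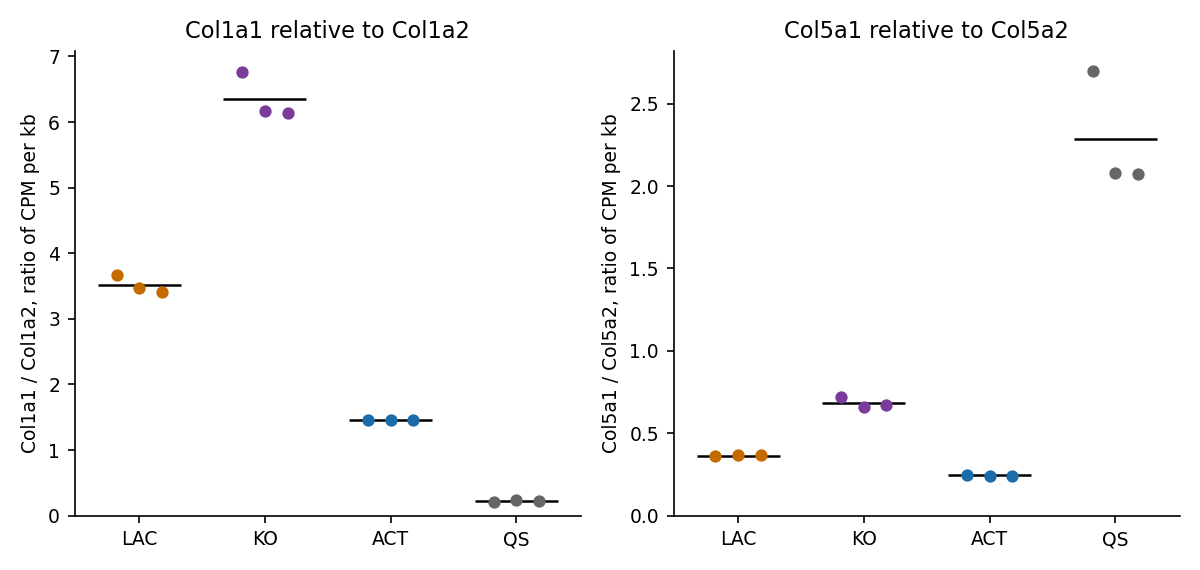
Ratio of Col1a1 to Col1a2 (left) and of Col5a1 to Col5a2 (right) in CPM per kb (vertical axes, from 0) in each library of LAC, KO, ACT and QS, with lines at the means. For type I the mean was 6.36 in KO and 1.46 in ACT, and for type V 0.685 in KO and 0.244 in ACT.

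The order of the 7 chains by CPM per kb also differed between groups. Col1a1 was first in LAC (454), KO (253) and ACT (901), and Col11a1 was last in all 4 groups. Col1a2 was the second chain in ACT with 618 CPM per kb, the fourth in LAC with 129 and the sixth in KO with 39.8. In QS, Col3a1 led with 47.2 CPM per kb, followed by Col1a2 with 21.6 and Col5a1 with 11.8. Neighbours in these orders did not overlap between libraries, apart from Col5a1 and Col12a1 in LAC (77.1 and 73.9 CPM per kb) and Col3a1 and Col5a1 in KO (73.4 and 71.3). The 7 chains together summed to 7461 ± 197 CPM in LAC, 3945 ± 184 CPM in KO, 13345 ± 87.6 CPM in ACT and 542 ± 30.8 CPM in QS.

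Every chain was higher in ACT than in QS, groups that differ in virus, culture and time together. All 7 were called higher, as were 38.0% of all genes. Col1a1 averaged 5341 ± 51.3 CPM in ACT, against 29.0, 29.3 and 27.6 CPM in QS, a 187-fold difference. Col5a2 averaged 1909 ± 18.9 CPM in ACT, against 32.8, 34.5 and 36.1 CPM in QS, 55.4-fold. Col1a2 was 28.6-fold higher in ACT than its 124, 110 and 114 CPM in QS. The differences were smaller for Col3a1, 5.98-fold above its 278, 258 and 253 CPM in QS, and Col5a1, 5.94-fold above its 112, 91.1 and 94.99 CPM in QS. The ACT mean of Col11a1 was at least 77.8-fold higher than in QS, where it was listed at 0 in all 3 libraries and was set to 3 reads per library, a mean of 0.552 CPM. Col12a1 rested on 6790 to 8194 estimated reads in ACT, against 17, 3 and 2 in QS.

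KO was also set against QS, to see how near each chain came to its starting level. All 7 chains were called higher in KO than in QS, where 37.4% of all genes were. The differences were smallest for Col1a2 (213 ± 3.53 CPM in KO and 116 ± 7.22 CPM in QS, log2 fold change 0.88, adjusted p = 7.53e-11) and Col3a1 (408 ± 14.1 and 263 ± 13.5 CPM, 0.63, adjusted p = 2.5e-09). With stellate lineage scaling both turned lower in KO, by -0.23 and -0.48 on the log2 scale. Col1a1 was still 52.3-fold and Col5a2 20.0-fold higher in KO than in QS.

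Likeness to other genes was measured as Pearson's r of log2(CPM + 1) over the 9 libraries of LAC, KO and ACT, which share culture and fall into 3 groups, among genes with a mean of at least 5 CPM. Among the chains, Col1a1 and Col1a2 (r = 0.998) and the neighbouring genes Col3a1 and Col5a2 (r = 0.998) were closest, whereas Col5a1 and Col5a2 had an r of 0.099. Such an r follows where LAC lies between KO and ACT, and not the size of a change. The 4 genes most like Col3a1 were Myo1f, Cd300ld, Lyz2 and Itgb5 (r of 0.9992 to 0.9996), and those most like Col5a2 were Trem2, Syk, Nckap1l and Csf1r. In KO against ACT the log2 fold change was -7.03 for Lyz2 and -1.94 for Col3a1. Lyz2, the lysozyme gene of macrophages, had 2240 CPM in LAC, 70.4 CPM in KO and 9350 CPM in ACT, and Csf1r, a macrophage growth factor receptor gene, had 157, 11.7 and 556 CPM. Capg, Psap, Ctsd and Pram1 were most like Col1a1, and Ctsb, Il1rn, Timp2 and Cemip most like Col1a2. Genes most like Col11a1 included Inhba, the activin subunit gene (599 CPM in LAC, 286 CPM in KO and 433 CPM in ACT, r = 0.997), Has2, a hyaluronan synthase gene (0.994), and Cd109 (0.992). Col12a1 was nearest to Loxl2, a lysyl oxidase gene (1553, 1157 and 1208 CPM, r = 0.989), Map4k3, Zfr and Gprc5b, and Col5a1 to Mapkbp1, Atoh8, Cep192 and Zfp106.

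Mesothelial cells and portal fibroblasts also make collagen. The 10 mesothelial markers summed to 96.9 to 98.0 CPM in LAC, 67.0 to 68.0 CPM in KO, 243 to 264 CPM in ACT and 62.6 to 69.1 CPM in QS. Wt1, a mesothelial transcription factor gene, had 5.89 CPM in LAC, 0.896 CPM in KO and 79.8 CPM in ACT, and Upk3b had 4.61, 0.872 and 58.4 CPM. Of the 10 markers 5 were called lower and 3 higher in KO than in ACT (26.3% and 36.0% of all genes). The higher ones were the keratin genes Krt18 (25.4 CPM in KO and 5.10 CPM in ACT), Krt19 (23.2 and 7.07 CPM) and Krt8 (9.17 and 4.33 CPM). Of 15 portal fibroblast and smooth muscle markers 7 were measured, and they summed to 1216 to 1256 CPM in LAC, 584 to 601 CPM in KO, 1907 to 1914 CPM in ACT and 221 to 270 CPM in QS. Fbln2 (642, 340 and 958 CPM in LAC, KO and ACT) and Lox made up most of that sum in these groups, and Gas6 had 48.3, 57.1 and 113 CPM. Over LAC, KO and ACT both sums were ordered like Col1a1 and Col3a1, as were the macrophage sum and the stellate and mesenchymal sum. Most members of the last list went the other way: 10 of its 16 markers were called higher and 4 lower in KO than in ACT. Its 3 most abundant markers, Vim, Acta2 and Tagln, were among the 4. The part of any of these cells in the collagen values was not tested. Hepatocyte markers, 17 measured of 18, summed to 262 to 271 CPM in LAC, 535 to 595 CPM in KO, 162 to 172 CPM in ACT and 2281 to 2322 CPM in QS, and 6 of them, among them Ahsg and Cps1, were at 0 in every LAC library. A single gene, Ass1, which many cells express, carried most of the sum in LAC and ACT, with a mean of 263 CPM in LAC, 233 CPM in KO and 114 CPM in ACT. Against ACT, 11 of the 17 were called lower in LAC and only Ass1 higher (21.7% and 27.8% of all genes). Alb, the albumin gene, had 0.601 CPM in LAC, 157 CPM in KO, 10.6 CPM in ACT and 1128 CPM in QS, and Serpina1c had 0.0648, 32.3, 0.710 and 191 CPM. None of 10 lymphocyte markers was listed.

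Collagen-making and collagen-handling genes were followed in 9 further lists. Their counts stand against 36.0% of all genes called higher and 26.3% lower in KO against ACT, and against 20.0% called higher and 2542 of 12081 called lower in LAC against KO. No test compared the lists with each other or with other genes. Enzymes that hydroxylate and glycosylate collagen in the endoplasmic reticulum went both ways in KO against ACT, with 7 of 15 measured called higher and 4 lower (median log2 fold change 0.15), the lower calls being near the 26.3% of all genes. P4ha3, a subunit of prolyl 4-hydroxylase, had 1.27 CPM in KO and 5.31 CPM in ACT (-1.47, adjusted p = 4.17e-04), P3h4 had 16.98 and 47.3 CPM (-1.43, adjusted p = 7.99e-08), and P3h2, a prolyl 3-hydroxylase, had 40.5 and 13.8 CPM (1.49, adjusted p = 2.76e-08). In LAC against KO, 5 of the 15 were called higher and 2 lower, with P4ha3 at 6.09 CPM in LAC (1.63, adjusted p = 3.69e-04). In the folding and export list of 18, KO had 4 called higher and 3 lower, where 36.0% and 26.3% of all genes were (median 0.03), among them Mia2, an export receptor gene (-0.47), the chaperone gene Pdia3 (0.35) and the coat gene Sec31a (0.33). With stellate lineage scaling the last 2 were lower in KO (-0.10 and -0.11) and 15 of the 18 were called lower. That scaling also called 6444 of all 12081 genes lower in KO.

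Other enzymes trim and crosslink collagen outside the cell. Of 7 measured genes of propeptide removal 3 were called lower and 2 higher in KO (26.3% and 36.0% of all genes). Tll1, a procollagen C-proteinase gene, had 29.3 CPM in KO and 84.1 CPM in ACT (-1.49, adjusted p = 2.14e-08), and 65.8 CPM in LAC (1.14 against KO, adjusted p = 1.16e-06). Adamts14, an N-proteinase gene, and Pcolce, a proteinase enhancer gene, were called higher in KO (0.66 and 0.57), the call of Pcolce being lost with stellate lineage scaling (adjusted p = 0.149). Of 6 crosslinking genes 2 were called lower and 2 higher in KO (26.3% and 36.0% of all genes), with a median of 0.02. Lox, which encodes lysyl oxidase, had 70.6 CPM in KO and 517 CPM in ACT (-2.86, adjusted p = 7.11e-12), and rose to 318 CPM in LAC (2.16, adjusted p = 6.51e-10). Loxl1 had 11.7 and 63.2 CPM (-2.35), whereas Loxl4 had 153 and 31.4 CPM (2.25), and was 143 CPM in LAC (-0.09 against KO, adjusted p = 0.391).

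Among 13 measured fibril-binding proteins 8 rose and 5 fell in KO (median 0.39), against 36.0% higher and 26.3% lower over all genes. In LAC against KO 9 were called higher and 2 lower (median 0.64), where 20.0% of all genes were called higher. Fn1, the fibronectin gene, had 718 CPM in KO and 11337 CPM in ACT (-3.98, adjusted p = 3.5e-16), next to -3.95 for Col1a2, and 2078 CPM in LAC (1.53, adjusted p = 4.02e-11). Macrophages also express it, and the part of their lower marker sum in KO was not tested. Ogn, the osteoglycin gene, had 10.9 and 98.0 CPM (-3.06), and Fmod, the fibromodulin gene, 0.607 and 10.4 CPM (-2.82). The KO levels of Fmod and of Itga11, given below, rest on few reads. Of 10 collagen receptor genes 5 were called lower and 3 higher in KO (26.3% and 36.0% of all genes). Itga11, a stromal collagen receptor subunit gene, had 0.539 CPM in KO and 8.47 CPM in ACT (-2.66, adjusted p = 8.23e-07), Lair1, a receptor of leukocytes, 1.38 and 80.5 CPM (-5.10), and Itga1, also high in endothelium, 252 and 79.7 CPM (1.65).

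Of 9 measured collagenases and inhibitors 8 were called lower and 1 higher in KO (median -1.10), where 26.3% of all genes were called lower and 36.0% higher. In LAC against KO 7 of the 9 were called higher, where 20.0% of all genes were. Mmp9 had 0.612 CPM in KO and 34.3 CPM in ACT (-4.48), Mmp8 0.736 and 14.9 CPM (-3.20) and Timp2 229 and 723 CPM (-1.66). Mmp8 and Mmp9 are genes of neutrophils and macrophages, and their KO levels rest on few reads. Of 6 further fibrillar and fibril-associated collagens measured of 14, 2 were called higher and 2 lower in KO (36.0% and 26.3% of all genes). Col24a1, another fibrillar collagen, had 1.99 CPM in KO and 14.2 CPM in ACT (-2.38, adjusted p = 8.14e-07), Col5a3, the third chain of type V, 4.12 and 8.13 CPM (-0.88, adjusted p = 0.0287, a call lost with a pseudocount of 0.1 and without ACT replicate 2, ACT replicate 3 or KO replicate 3, where the adjusted p reached 0.128), and Col14a1, a fibril-associated relative of Col12a1, 83.1 and 36.6 CPM (1.16, adjusted p = 8.6e-11).

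Among regulators of collagen genes, 33 were measured, of which 12 rose and 12 fell in KO (median -0.06). Over all genes 36.0% were called higher, a share near that of the regulators, and 26.3% lower. In LAC against KO 12 were called higher, where 20.0% of all genes were, and 3 lower, a count that ran from 2 to 5 without single libraries. Tgfbr1, a receptor of the fibrogenic cytokine TGF-beta, had 28.4 CPM in KO and 138 CPM in ACT (-2.25, adjusted p = 2.63e-12), and 52.0 CPM in LAC (0.85, adjusted p = 3.74e-07). Runx2 had 8.23 and 21.4 CPM in KO and ACT (-1.27), and 15.4 CPM in LAC (0.82, adjusted p = 0.00139). Ets1, a factor gene strongly expressed in endothelium, had 467 and 92.1 CPM (2.33, adjusted p = 1.51e-15), and 325 CPM in LAC (-0.52).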

How the data were processed

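RNA of 12 libraries was sequenced after a stranded mRNA kit, per the labels' protocols. The deposited table gives the authors' library-size normalized counts (CPM) for 12081 genes. It was treated as a signal, since the authors' column totals run from 959233 to 1047042. FastQC 0.11.8, cutadapt 1.18, kallisto 0.44.0, edgeR 3.8 and mm10 are named in the submitters' processing notes, with no roles. The size of 1 read was read from recurring low values. Only 19.7% to 25.7% of positive values per library were within 0.01 of whole reads, so no count test was run. Intervals come from limma and cover the spread between libraries.

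Values were tested as log2(CPM + 1) with limma 3.58.1 (R 4.3.3), 4 group means and an intensity trend, after a filter of 1 CPM in 3 libraries that removed no gene. Calls used an adjusted p under 0.05. The fit was tested on simulated data. Named genes were Hk2, the 7 chains, up to 3 called genes per pathway list with at least 5 CPM and the largest KO against ACT change, the 3 most abundant genes per marker list and the 4 genes most like each chain. Of those most like a chain, 1 is not reported here. Members and lists were chosen with earlier results of these data known. Alternatives covered pseudocounts, filters, scalings, fits and leaving out libraries. Reads of near-identical genes are uncertain.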

Additional observations from a re-analysis of the deposited data

How the results depend on the processing

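All 5 falls in KO against ACT, and the rises of Col1a1, Col1a2, Col3a1, Col5a2 and Col11a1 in LAC against KO, kept their direction and call under every alternative and without each library in turn. Col5a1 and Col12a1 did not, nor did Col1a2 and Col3a1 in KO against QS. The sizes were less stable than the calls. With other scalings the LAC and KO levels in percent of ACT moved beyond the SD among libraries in 32 cases and stayed within it in 24. Stellate lineage scaling divided LAC by 1.31 to 1.40, KO by 1.25 to 1.35 and ACT by 0.916 to 0.981, which lowers LAC and KO levels relative to ACT.

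For Col5a1 in KO against ACT the sign turned with an equal upper quartile (-0.035), equal median ratio (-0.061), quantile normalization (-0.065) and stellate lineage scaling (-0.43), and it ranged from -0.034 to 0.069 without single libraries (adjusted p of 0.408 to 0.933), lowest without KO replicate 1. In LAC against ACT, Col5a1 was -0.37 with stellate lineage scaling, 0.13 in a fit of both groups alone (adjusted p = 0.00131) and 0.14 with library weights (adjusted p = 0.0222), and 0.12 to 0.15 without single libraries, called without QS replicate 1 (adjusted p = 0.0236). Col12a1 in KO against ACT was called with stellate lineage scaling (-0.61) and in a fit of both groups alone (-0.16), and ranged from -0.23 to -0.12 without single libraries. Col12a1 in LAC against KO was 0.71 and not called with a pseudocount of 0.1 (adjusted p = 0.0932). In LAC against ACT, it was not called with a pseudocount of 0.1 (0.54), 0.5 (0.54) or stellate lineage scaling (0.034). In KO against QS, Col1a2 (-0.23) and Col3a1 (-0.48) reversed with stellate lineage scaling.

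Stellate lineage scaling sets every library to an equal geometric mean of Pdgfrb, Des, Hand2, Lhx2, Vim and Nes, which may themselves respond. It moved the median of all genes in KO against ACT to -0.35 and in LAC against KO to -0.08, with 1718 genes called higher and 6444 lower in KO (4354 and 3179 as deposited). It left 1714 higher and 2752 lower in LAC against KO (2415 and 2542 as deposited) and 1154 higher and 7699 lower in LAC against ACT (3362 and 2618). Against QS it left 2139 higher and 7764 lower in ACT (4592 and 4289) and 1208 higher and 9428 lower in KO (4517 and 4308). An equal total moved the median of KO against ACT to 0.10. The cause of these shifts was not tested beyond their construction. Pcolce in LAC against KO was near 0 and turned under equal total (-0.016), equal upper quartile (-0.0045), stellate lineage scaling (-0.060), quantile normalization (-0.016), library weights (-0.0052) and without KO replicate 2, KO replicate 3 or LAC replicate 2 (range without single libraries -0.037 to 0.029). Mmp8 turned with quantile normalization (-0.012), and Pdia3 (-0.10) and Sec31a (-0.11) in KO against ACT with stellate lineage scaling.

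Little sign of pairing by replicate number was seen, which cannot show that the libraries were unpaired. Of 18 pairs of libraries with a shared number, 1 had a correlation of deviations over 0.1 (range -0.04 to 0.10). Of 12 libraries, 4 correlated best with their own number. Replicate 1 was the deepest library of every group. With the replicate block every chain kept its call, for example Col12a1 in KO against ACT at an adjusted p of 0.333. A level of 3 reads is 0.212 to 0.720 CPM, which limits Col11a1 and Col12a1 in QS. In KO it is 0.252 to 0.494 CPM, which also limits low KO levels such as those of Itga11 (0.539 CPM), Fmod (0.607 CPM), Mmp9 (0.612 CPM) and Mmp8 (0.736 CPM).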

Other observations

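Some fibril-binding proteins took a course unlike that of collagen I. They were chosen after their values were seen. Thbs2, the thrombospondin 2 gene, had 149 CPM in LAC, 61.3 CPM in KO and 22.6 CPM in ACT, with log2 fold changes of 1.27 for LAC against KO (limma adjusted p = 1.6e-08) and 1.40 for KO against ACT (adjusted p = 1.57e-09). Postn, the periostin gene, had 370, 237 and 157 CPM in LAC, KO and ACT, and Prelp, a leucine-rich proteoglycan gene, had 515, 237 and 59.9 CPM. Tnc, the tenascin C gene, had 4506, 3531 and 1480.1 CPM. All 4 were called higher in KO than in ACT (36.0% of all genes) and higher again in LAC than in KO (20.0% of all genes). The share of all genes with both calls was not computed. Bgn, the biglycan gene of the same list, also had both calls, with smaller log2 fold changes of 0.41 for KO against ACT and 0.17 for LAC against KO. Itga2, a collagen receptor subunit gene, had 38.7 CPM in LAC, 14.2 CPM in KO and 13.0 CPM in ACT (1.39 for LAC against KO, adjusted p = 5.67e-07), and was not called in KO against ACT (adjusted p = 0.455).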
